A study of Homo sapiens with 6 samples.

Results

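The AP-1 transcription factor genes FOS, FOSB, FOSL1, FOSL2, JUN, JUNB, JUND, ATF3, MAFF and BATF3 were described in RNA-Seq of HepG2 cells with and without overexpression of the microprotein APPLE. They were 10 of the 20422 genes in the count table and were taken by symbol from the AP-1 and related basic leucine zipper (bZIP) families. The set was selected on the difference between ORF-Flag and NC in these same 6 libraries, which was known when the genes were listed. Differences of the members between the groups are therefore given as a description. The calls and intervals printed for members describe these libraries, are no independent test and support nothing.

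HepG2 is an established human liver cancer line. The NC group was 3 samples of HepG2 with empty vector, and the ORF-Flag group was 3 samples of HepG2 that overexpressed the ASH1L-AS1 open reading frame, which encodes APPLE, fused to a Flag tag. The comparison addressed what APPLE overexpression changes in the transcriptome, in a study of MAPK/ERK signaling. The sample labels name plasmids as the carrier of the constructs, whereas the study's methods describe lentiviral infection and puromycin selection of stable lines. HepG2 was the only line sequenced, and the level of the introduced construct was not analysed here. The sources do not say if the samples within a group came from different cultures, so the p-values measure only the spread between these samples, which may be technical.

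The libraries held 20081203, 24907524 and 30088457 counts in NC 1, 2 and 3, and 26866148, 17494668 and 27015836 counts in ORF-Flag 1, 2 and 3. By these totals 3 counts equalled between 0.0997 and 0.171 CPM (counts scaled to a common library size), and this was taken as the floor of detection in a library. Such floors, and the counting intervals given for low genes, cover counting error only. All 12 hepatocyte and HepG2 markers that were looked up (among them ALB, AFP, APOA1, HNF4A and GPC3) were detected, with a summed level between 25629.7 and 26690.3 CPM across the 6 libraries and APOB as the most abundant. FGB, a fibrinogen gene, was the 1 marker called between the groups, with a log2 fold change of 0.14 (edgeR adjusted p = 0.0232). ALB and SERPINA1 were not called, at log2 fold changes of 0.08 and 0.09 (edgeR adjusted p = 0.205 and 0.130), although for both all ORF-Flag libraries were higher than all NC libraries. Of 11 markers of blood, endothelial and stromal cells, 6 had at most 3 counts in every library, PTPRC, CD3E and DCN among them at 0. The summed level of these 11 was 118, 112 and 107 CPM in NC 1, 2 and 3 and 117, 116 and 118 CPM in ORF-Flag 1, 2 and 3, most of it ACTA2. None of the 4 tested (CD68, CD14, PECAM1 and ACTA2) was called. The macrophage marker CD68, named after its values were seen, was at 42.7, 37.3 and 38.0 CPM in NC 1, 2 and 3. In ORF-Flag 1, 2 and 3 it was at 37.9, 37.3 and 40.0 CPM, so the groups overlapped. CD14 had between 8 and 21 counts in every library. PECAM1, an endothelial marker named after its values were seen, was at 4.45, 3.84 and 4.78 CPM in NC 1, 2 and 3 and at 6.03, 5.29 and 5.78 CPM in ORF-Flag 1, 2 and 3, with a log2 fold change of 0.39 ± 0.13 (edgeR adjusted p = 0.0958). For ACTA2 the groups also did not overlap, with a log2 fold change of 0.08 ± 0.05 (edgeR adjusted p = 0.409). The share of counts on 13 mitochondrial genes was 10%, 10.3% and 10.2% in NC 1, 2 and 3 and 9.76%, 10.3% and 10.1% in ORF-Flag 1, 2 and 3, so the groups overlapped.

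AP-1 is a dimer of bZIP proteins on short palindromic DNA elements, in which JUN proteins pair with each other or with FOS proteins and FOS proteins need a partner. FOS, FOSB, JUN and ATF3 are early genes that growth factors and stress switch on within minutes, in part through ERK acting on factors already bound to their promoters, and the FOS and JUN proteins are stabilised or activated by ERK and JNK phosphorylation. In liver, JUN is known for its roles in hepatocyte survival and tumor formation, and ATF3 for its induction by stress.

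In NC cells the JUN family was far more abundant than the FOS family. Levels of different genes were compared per kilobase of exon (RPKM), as mean ± SD over 3 libraries. JUND stood highest at 39.1 ± 6.54 RPKM, ahead of JUN at 16.7 ± 0.429 and JUNB at 7.97 ± 0.677. FOSL1, at 5.88 ± 0.787 RPKM, was the leading FOS gene, and FOSL2 followed at 1.45 ± 0.136. ATF3 stood at 1.17 ± 0.0472 RPKM and MAFF at 0.460 ± 0.0597. The classical early genes were close to silent, with FOS at 0.179 ± 0.0329 RPKM and FOSB at 0.0285 ± 0.0017. BATF3 came last at 0.00984 ± 0.017 RPKM. Along this order the NC values of neighbouring genes did not overlap, except those of FOSB and BATF3. With the longest transcript in place of all exons as the length, FOSL2 and ATF3 changed places.

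**Figure D1:**
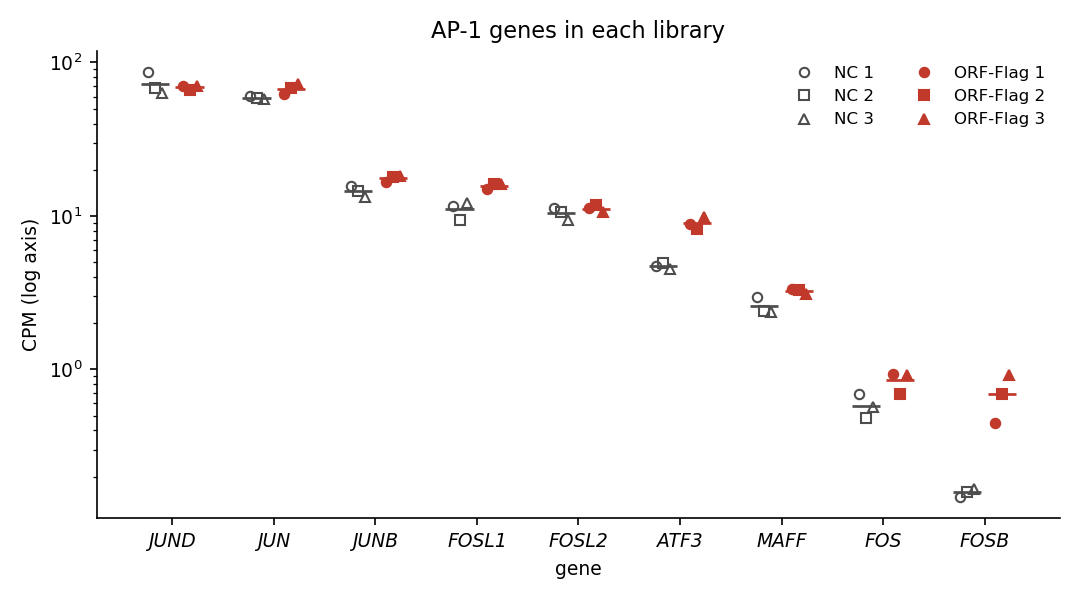
Level of each AP-1 gene that passed the filter on low counts, in CPM on a log axis, in NC 1 to 3 (open grey) and ORF-Flag 1 to 3 (filled red), with group means as bars; genes run from the highest to the lowest RPKM in NC. ATF3 lies between 4.54 and 4.92 CPM in NC and between 8.27 and 9.82 CPM in ORF-Flag, whereas the NC and ORF-Flag points of JUND, FOSL2 and FOS overlap.

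Genes were tested across the transcriptome with edgeR, and a gene was called at an adjusted p below 0.05. Of the 10 members, 9 passed the filter on low counts and BATF3 did not. ATF3, FOSB, FOSL1, JUN and JUNB, 5 of these 9, were called, each higher in ORF-Flag. FOSB passed the filter only through the ORF-Flag libraries, the group in which it was high. Over all 12386 genes tested, 4.45% were called, 2.47% higher and 1.98% lower. In 6 of the 9 members (those 5 and MAFF) the 3 ORF-Flag libraries lay above the 3 NC libraries, as they did for 11.5% of all genes tested. Nothing is read from these counts, since the members were chosen by this contrast. The log2 fold changes of the 9 members ran from -0.07 to 2.07 with a median of 0.34, and the median over all genes tested was -0.0012. RNA was taken from whole cultures, so a change in the number of cells that express a gene and a change in the RNA per cell cannot be told apart.

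**Figure D2:**
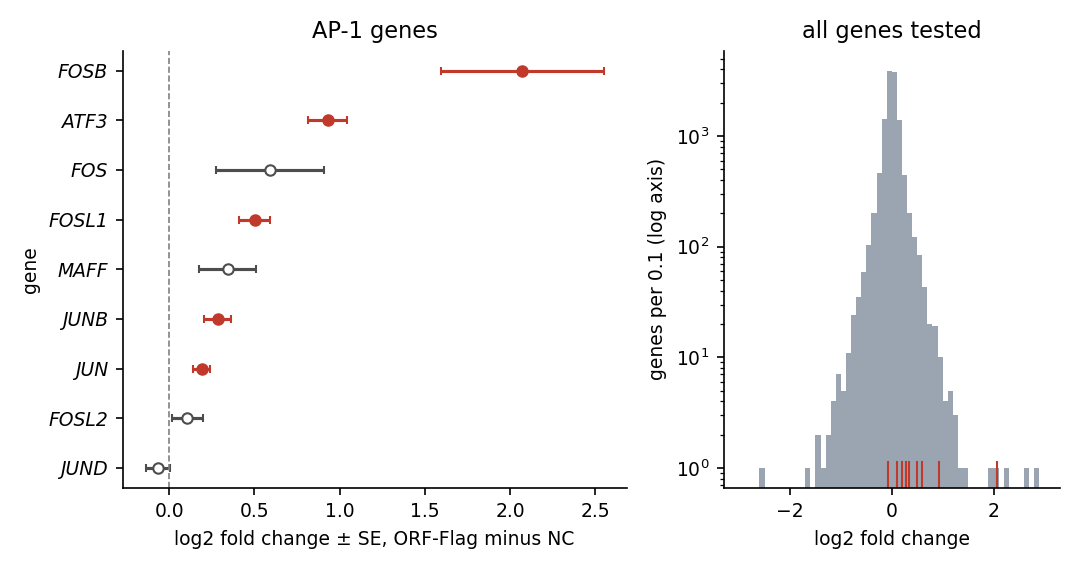
Left, log2 fold change of each AP-1 gene, ORF-Flag minus NC, with its standard error as the bar; filled red points passed the transcriptome-wide threshold. Right, the distribution of log2 fold changes over all 12386 genes tested on a log count axis, with the members as short red marks from -0.07 (JUND) to 2.07 (FOSB).

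The FOS family was led by FOSL1, which encodes FRA-1, a FOS protein without the transactivation domain of FOS and a known output of sustained ERK activity. FOSL1 (ENSG00000175592.9, chr11:65892049-65900573, minus strand, GRCh38) stood at 11.6, 9.41 and 12.2 CPM in NC 1, 2 and 3 and at 15.05, 16.2 and 16.0 CPM in ORF-Flag 1, 2 and 3. Every ORF-Flag library was above every NC library, and NC 2 was the lowest of the 6. The log2 fold change was 0.50 ± 0.09 (SE), or 1.42-fold. With 1 library left out it ran from 0.40 (without NC 2) to 0.59 (without NC 3).

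FOSB and FOS are among the genes that serum and growth factors induce fastest, and their unstimulated transcripts are scarce. Their promoters are shown because they carry the core of the cAMP response element, TGACG, near the start. The stretches lie upstream of the first annotated exon, on the plus strand of GRCh38.p14 (RefSeq), at chr19:45467845-45467994 for FOSB and chr14:75278624-75278773 for FOS, and capitals mark TGACG and, in FOSB, the TATA motif TATAAA.
FOSB: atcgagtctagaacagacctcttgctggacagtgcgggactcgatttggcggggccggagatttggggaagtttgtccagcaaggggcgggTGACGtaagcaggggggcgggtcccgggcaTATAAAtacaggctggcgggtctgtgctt
FOS: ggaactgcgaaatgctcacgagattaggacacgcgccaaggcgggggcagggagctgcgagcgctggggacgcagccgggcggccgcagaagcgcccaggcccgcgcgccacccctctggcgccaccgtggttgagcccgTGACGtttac
In FOSB the TGACG begins 60 bases and the TATAAA 30 bases before the RefSeq start, and in FOS they begin 64 and 33 bases before it, the TATAAA of FOS being outside the printed stretch. The serum response element for which the FOS promoter is known lies further upstream than the 250 bases searched.

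FOSB (ENSG00000125740.14, chr19:45467995-45475179, plus strand) had 3, 4 and 5 counts in NC 1, 2 and 3 and 12, 12 and 25 counts in ORF-Flag 1, 2 and 3. This equalled 0.148, 0.160 and 0.167 CPM in NC and 0.447, 0.689 and 0.926 CPM in ORF-Flag. All NC libraries were at or just above the floor of detection, and ORF-Flag 3 was the highest library. FOSB passed the filter on low counts only through the ORF-Flag libraries, so its call supports nothing. Summed over the libraries, 12 counts in NC and 49 in ORF-Flag gave a rate ratio of 4.30, with a 95% exact counting interval from 2.25 to 8.87. The fitted log2 fold change was 2.07 ± 0.48 (SE). It was no longer called without NC 2 (2.07) or without ORF-Flag 3 (1.74).

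FOS itself (ENSG00000170345.10, chr14:75278774-75282230, plus strand) had 14, 12 and 17 counts in NC 1, 2 and 3 and 25, 12 and 25 counts in ORF-Flag 1, 2 and 3. In CPM the values were 0.692, 0.480 and 0.568 in NC and 0.931, 0.689 and 0.926 in ORF-Flag. NC 1 was just above ORF-Flag 2, so the groups overlapped. FOS was not called, with a log2 fold change of 0.59 ± 0.32 (SE) and a rate ratio of 1.52 whose 95% exact counting interval ran from 1.01 to 2.29.

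FOSL2 (ENSG00000075426.12, chr2:28392448-28417312, plus strand) encodes FRA-2, the other FOS protein without that domain. It stood at 11.3, 10.6 and 9.36 CPM in NC 1, 2 and 3 and at 11.2, 11.7 and 10.6 CPM in ORF-Flag 1, 2 and 3. The groups overlapped, with NC 3 as the lowest library. The log2 fold change was 0.11 ± 0.09 (SE), it was not called, and without NC 3 it was 0.03.

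Summed over the 4 genes, the FOS family level was 7.98, 6.64 and 7.99 RPKM in NC 1, 2 and 3 and 9.91, 10.6 and 10.4 RPKM in ORF-Flag 1, 2 and 3. FOSL1 made up 77.8% ± 3.03 of this sum in NC and 81.1% ± 0.532 in ORF-Flag (SD, n = 3). FOS and FOSB together contributed little in either group, since FOS held 2.37% ± 0.27 and 2.55% ± 0.472 and FOSB 0.382% ± 0.0499 and 1.20% ± 0.393 in NC and ORF-Flag. The ratio of FOSL1 to FOSL2 was 3.91, 3.38 and 4.96 in NC 1, 2 and 3 and 5.09, 5.24 and 5.74 in ORF-Flag 1, 2 and 3. NC 3 was close to ORF-Flag 1, and the groups did not overlap.

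The JUN family genes have no introns and supply the obligate partners of the FOS proteins. The JUN promoter is shown because it holds TGACATCA, the AP-1-like element through which JUN and ATF2 are known to act on JUN itself. The 30 bases around it are chr1:58784096-58784125 of GRCh38.p14 (RefSeq), printed 5′ to 3′ on the minus strand with the octamer in capitals. The octamer begins 67 bases before the RefSeq start and falls inside the longer first exon of GENCODE 29.
JUN: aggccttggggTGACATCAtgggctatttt
The JUNB promoter is printed for comparison, on the plus strand at chr19:12791336-12791485, and its capitals mark TGACG, 137 bases before the start, and TATAAA, 31 bases before it.
JUNB: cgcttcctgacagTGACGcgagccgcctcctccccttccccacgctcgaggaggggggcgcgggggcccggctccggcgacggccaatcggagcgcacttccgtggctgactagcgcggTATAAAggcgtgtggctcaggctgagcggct

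JUN (ENSG00000177606.8, chr1:58780788-58784327, minus strand) stood at 60.6, 58.8 and 57.6 CPM in NC 1, 2 and 3 and at 62.0, 67.7 and 72.1 CPM in ORF-Flag 1, 2 and 3. The NC libraries were tightly grouped, ORF-Flag 1 was just above them and ORF-Flag 3 was the highest. This gave a log2 fold change of 0.19 ± 0.05 (SE), or 1.14-fold. It was no longer called without NC 2 (0.19), without ORF-Flag 2 (0.19) and without ORF-Flag 3 (0.13).

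JUNB (ENSG00000171223.6, chr19:12791496-12793315, plus strand), a JUN protein with weaker transactivation that can restrain JUN, stood at 15.7, 14.5 and 13.3 CPM in NC 1, 2 and 3. In ORF-Flag 1, 2 and 3 it stood at 16.6, 18.0 and 18.2 CPM. NC 1 was nearest to the ORF-Flag libraries, and the groups did not overlap. JUNB had a log2 fold change of 0.28 ± 0.08 (SE), or 1.22-fold. Of the 6 fits that each left out a library, it was called in the 1 without NC 1 (0.34), and not without NC 2 (0.29), NC 3 (0.22), ORF-Flag 1 (0.33), ORF-Flag 2 (0.27) or ORF-Flag 3 (0.26). Its exon shares 259 bases with HOOK2 on the opposite strand, and because the strand setting of the counting is not given in the sources used here, reads of the 2 genes could not be told apart there. HOOK2 stood at 29.3, 27.9 and 25.0 CPM in NC and at 26.4, 24.3 and 27.4 CPM in ORF-Flag, with overlapping groups and a log2 fold change of -0.06.

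JUND (ENSG00000130522.6, chr19:18279760-18281622, minus strand), the JUN gene that is expressed constitutively in most cells, stood at 86.7, 68.3 and 63.6 CPM in NC 1, 2 and 3. In ORF-Flag 1, 2 and 3 it stood at 70.3, 65.9 and 70.5 CPM. NC 1 was well above the other libraries, which lay close together in both groups. Its log2 fold change was -0.07 ± 0.07 (SE), and without NC 1 it was 0.07.

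The summed level of the JUN family did not separate the groups, at 72.3, 61.3 and 57.7 RPKM in NC 1, 2 and 3 and 64.4, 64.4 and 68.2 RPKM in ORF-Flag 1, 2 and 3. Within the family the share of JUND was 61.1% ± 2.82 in NC and 56.3% ± 1.98 in ORF-Flag (SD, n = 3). JUNB held 12.5% ± 0.547 and 14.7% ± 0.59, and JUN 26.3% ± 2.35 and 28.9% ± 1.48. The ratio of JUNB to JUND was 0.186, 0.218 and 0.213 in NC 1, 2 and 3 and 0.242, 0.279 and 0.265 in ORF-Flag 1, 2 and 3, without overlap. By contrast, the ratio of JUN to JUND overlapped, at 0.368, 0.453 and 0.476 in NC and 0.464, 0.540 and 0.538 in ORF-Flag. Relative to the FOS family, the JUN family was 9.06, 9.22 and 7.22 times as abundant in NC 1, 2 and 3 and 6.50, 6.10 and 6.54 times in ORF-Flag 1, 2 and 3.

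ATF3, a stress-induced bZIP factor that can repress as a homodimer and activate with JUN, has several annotated starts. Its upstream promoter is shown because it holds the same octamer as that of JUN. The stretch is chr1:212565184-212565333 of GRCh38.p14 (RefSeq), plus strand, from 223 to 74 bases before the RefSeq start, and capitals mark TGACATCA, which begins 123 bases before it.
ATF3: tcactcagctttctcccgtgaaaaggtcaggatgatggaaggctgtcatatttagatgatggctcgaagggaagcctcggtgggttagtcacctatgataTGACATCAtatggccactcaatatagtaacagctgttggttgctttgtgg
A second RefSeq start of ATF3 lies inside the gene, and its promoter held TATAAA 230 bases before the start and not the octamer.

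ATF3 (ENSG00000162772.17, chr1:212565334-212620777, plus strand) stood at 4.75, 4.92 and 4.54 CPM in NC 1, 2 and 3 and at 8.83, 8.27 and 9.82 CPM in ORF-Flag 1, 2 and 3. The lowest ORF-Flag library was far above the highest NC library. Between the groups the log2 fold change was 0.93 ± 0.12 (SE), or 1.90-fold. With 1 library left out it ran from 0.86 (without ORF-Flag 3) to 0.98 (without ORF-Flag 2). The counts, 355 over the NC libraries and 646 over the ORF-Flag libraries, gave a rate ratio of 1.91 with a 95% exact counting interval from 1.68 to 2.18. The table counts ATF3 as a whole gene, whereas the study's qPCR primers for ATF3 match a part of its annotated transcripts. Levels of single transcripts were not measured here, so what share of ATF3 RNA the primers detect is not known. These primers, in capitals because the match spans them whole, match 4 of the 11 ATF3 transcripts of GENCODE 29 with a product of 124 bases.
ATF3 forward primer: ATGATGGCAGGTCCTCTGTT
ATF3 reverse primer: CCAGCCTAGACACAACTCCTG

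MAFF, a small MAF protein without a transactivation domain that pairs with CNC-family proteins such as NRF2 and can bind FOS, lies at chr22:38200767-38216511 (ENSG00000185022.12, plus strand). It stood at 2.97, 2.40 and 2.37 CPM in NC 1, 2 and 3 and at 3.35, 3.27 and 3.11 CPM in ORF-Flag 1, 2 and 3. NC 1 came close to the ORF-Flag libraries without reaching them. MAFF was not called, with a log2 fold change of 0.34 ± 0.17 (SE). BATF3, a JUN partner known from dendritic cells, lies at chr1:212686418-212699985 (ENSG00000123685.9, minus strand) on the chromosome arm of ATF3. It had 0, 2 and 0 counts in NC 1, 2 and 3 and 0, 0 and 2 counts in ORF-Flag 1, 2 and 3. All 6 libraries were under the floor of 3 counts, so no fold change is given and no difference was detectable at this depth.

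**Figure D3:**
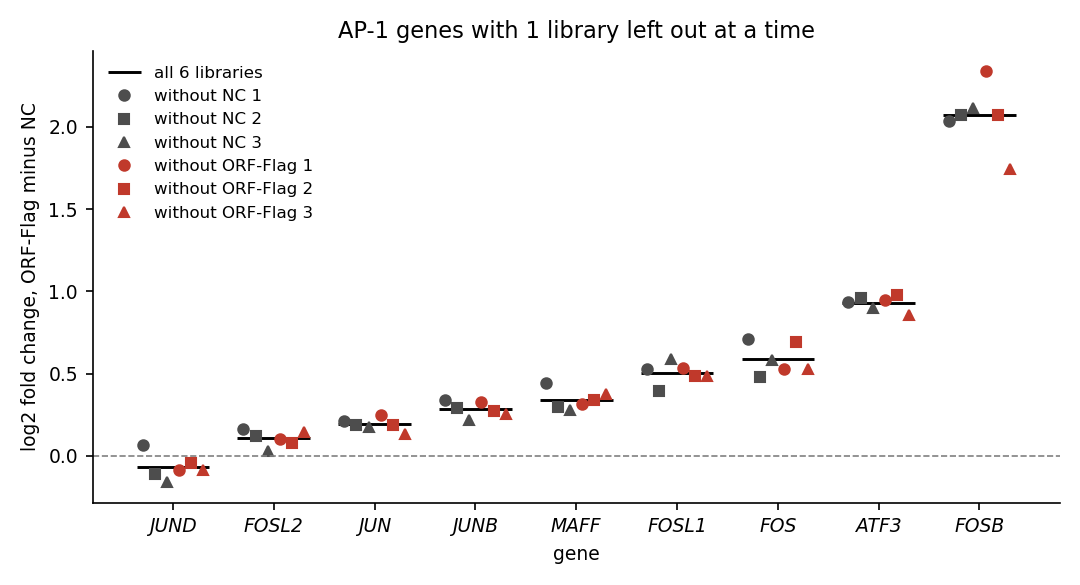
Log2 fold change of each AP-1 gene, ORF-Flag minus NC, with all 6 libraries (black bar) and with 1 library left out at a time (grey, an NC library; red, an ORF-Flag library). ATF3 ranges from 0.86 to 0.98 and FOSL1 from 0.40 to 0.59, whereas FOSB falls to 1.74 without ORF-Flag 3 and JUND crosses 0 without NC 1.

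Across the 250 bases before the start, the 8 members with RefSeq promoter entries (10 promoters) were searched on both strands, with the same window in all 35116 promoters as background. TGANTCA, a loose form of the AP-1 element TGACTCA, was in 6.57% of all promoters and in 0 of the 10 member promoters. TGACTCA alone was in 4.2% of all promoters and in 0 of the 10. TGACGTCA, the full cAMP response element, was in 1.65% of all promoters and in 2 of the 10, those of JUND and MAFF, 200 and 54 bases before the start. TGACATCA was in 2.37% of all promoters and in 2 of the 10, those of JUN and ATF3. The shorter TGACG, which is also part of the full element, was in 21.2% of all promoters and in 7 of the 10, from FOS, FOSB, FOSL2, JUN, JUNB, JUND and MAFF. TATAAA was in 10.7% of all promoters and in 4 of the 10, from ATF3, FOS, FOSB and JUNB. The CArG box of serum response factor was in 1.16% of all promoters and in 0 of the 10. FOSL1 and BATF3 had no entry. These are matches of letters and not measured binding sites.

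The spread between replicates differed among the members. The median gene had a within-group SD of 0.08 on the log2 CPM scale, and JUN (0.08), ATF3 (0.10), JUNB (0.10) and FOSL2 (0.11) were near it. MAFF (0.13), FOSL1 (0.15) and JUND (0.17) were more variable, and the sparse FOS (0.23) and FOSB (0.33) were the most variable. NC 1 was the highest NC library for 6 of the 9 tested members (FOS, FOSL2, JUN, JUNB, JUND and MAFF) and for 36.5% of all genes tested, and ORF-Flag 3 was the highest ORF-Flag library for 5 (FOSB, JUN, JUNB, JUND and ATF3) and for 32.9% of all genes tested. These member counts are few and were not tested. NC 1 had the fewest counts and the lowest mitochondrial share of the NC libraries and the lowest hepatocyte marker sum of the 6 (25629.7 CPM). Its 2 pairings with the other NC libraries gave the largest chi-square per degree of freedom of any replicate pair (3.57 with NC 2 and 5.23 with NC 3). ORF-Flag 3 lay within the range of the other libraries in these sums and shares. The part of NC 1 and ORF-Flag 3 in the differences was not tested beyond leaving each out.

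The genes most like the members were ranked by the Pearson r between their log2 CPM and the mean standardised profile of the 9 tested members over the 6 libraries. GADD45B, a growth arrest and stress gene, came first with r = 0.9996, followed by MVK (mevalonate kinase) with 0.996, KRT19 (keratin 19) with 0.993, TANC1 with 0.987 and CTNS (the lysosomal cystine transporter) with 0.986. GADD45B stood at 4.75, 3.52 and 3.31 CPM in NC 1, 2 and 3 and at 5.66, 5.97 and 6.48 CPM in ORF-Flag 1, 2 and 3. Its highest NC value was in NC 1 and its highest value of all in ORF-Flag 3, as for JUN and JUNB. The log2 fold changes were 0.67 ± 0.14 (SE) for GADD45B, 0.10 ± 0.04 for MVK and 0.21 ± 0.04 for KRT19. They were 0.11 ± 0.04 for TANC1 and 0.13 ± 0.06 for CTNS. GADD45B and KRT19 were called by edgeR, and MVK, TANC1 and CTNS were not. Without NC 2 or ORF-Flag 3 GADD45B was not called. Nothing is read from these calls, since the genes were ranked by likeness to members chosen on this contrast. In the 12377 genes outside the members, 54 had r above 0.95. These correlations are a description of 6 libraries that share their depth and grouping.

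Other bZIP genes that can pair with the members were higher and lower in similar numbers. Of 25 listed, 22 were tested, 10 were higher and 12 lower in ORF-Flag, beside 49.5% higher among all genes tested. Their median log2 fold change was -0.02, against -0.0012 for all genes. With edgeR 6 of the 22 had an unadjusted p below 0.05, beside 2293 of the 12386 genes tested. DDIT3, which encodes the stress factor CHOP, was the 1 gene called, where 4.45% of all genes were. It stood at 17.6, 17.1 and 17.8 CPM in NC 1, 2 and 3 and at 20.4, 24.2 and 22.9 CPM in ORF-Flag 1, 2 and 3. All ORF-Flag libraries were above all NC libraries, with a log2 fold change of 0.36 ± 0.07 (SE, edgeR adjusted p = 0.0047). ATF4, the stress response factor and the most abundant of the list at 159 ± 0.314 RPKM in NC, had a log2 fold change of 0.05 ± 0.03 with overlapping groups (edgeR adjusted p = 0.438). CEBPA, a hepatocyte factor named here after its value was seen, stood at 32.0, 26.7 and 23.2 CPM in NC 1, 2 and 3 and at 20.3, 20.2 and 24.7 CPM in ORF-Flag 1, 2 and 3. NC 3 was below ORF-Flag 3, so the groups overlapped, and the log2 fold change of -0.31 ± 0.09 missed the threshold (edgeR adjusted p = 0.0521). It passed with edgeR without NC 3 (-0.42, adjusted p = 0.000736) and without ORF-Flag 3 (-0.42, adjusted p = 0.026). With edgeR it did not pass without NC 1 (-0.19, adjusted p = 0.204) or NC 2 (-0.32, adjusted p = 0.116). Nor did it pass without ORF-Flag 1 (-0.26, edgeR adjusted p = 0.211) or ORF-Flag 2 (-0.27, edgeR adjusted p = 0.171). Over all alternatives the adjusted p of CEBPA ran from 0.000447 to 0.358.

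The list of genes that act upstream of AP-1 held 29 serum response, TCF, CREB and MEF2 factors, ERK, JNK and p38 pathway kinases and JUN turnover genes. Of the 27 tested, 17 were higher and 10 lower in ORF-Flag, with a median log2 fold change of 0.02 and a range from -0.27 to 0.16, beside 49.5% higher and a median of -0.0012 over all genes tested. With edgeR 0 were called, where 4.45% of all genes were, and 1, CREB1, had an unadjusted p below 0.05, beside 2293 of the 12386 genes tested. DESeq2 and limma-trend called 0 of the list as well, of the 413 and 594 genes they called in all. The most abundant of the list was RPS6KA3, which encodes the ERK-activated kinase RSK2, at 35.3 ± 0.872 RPKM in NC. Its level was 342, 349 and 359 CPM in NC 1, 2 and 3 and 347, 362 and 363 CPM in ORF-Flag 1, 2 and 3, with overlapping groups and a log2 fold change of 0.03 ± 0.03. CREB1, named after its value was seen, had a log2 fold change of -0.15 ± 0.07 (edgeR adjusted p = 0.242). Transcript levels carry no information on the phosphorylation of these kinases.

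Genes with textbook AP-1 sites or AP-1 dependence moved in both directions. Of 35 listed, 21 were tested, 14 were higher and 7 lower in ORF-Flag, and the median log2 fold change was 0.09, beside 49.5% higher and a median of -0.0012 over all genes tested. An unadjusted edgeR p below 0.05 was found for 9 of the 21, beside 2293 of the 12386 genes tested. The list was chosen with earlier results of these data known. With edgeR 3 were called higher, CXCL8 and SPP1 among them, and 2 lower (MT2A and CCND1), where 2.47% of all genes were called higher and 1.98% lower. CXCL8, the neutrophil chemokine interleukin-8, stood at 20.8, 20.8 and 21.7 CPM in NC 1, 2 and 3 and at 27.7, 29.2 and 28.8 CPM in ORF-Flag 1, 2 and 3. The groups were far apart relative to their spread, with a log2 fold change of 0.43 ± 0.06 (SE, edgeR adjusted p = 0.000112). SPP1, which encodes osteopontin and was the most abundant of the list at 500.5 ± 32.5 RPKM in NC, stood at 1077, 1186 and 1222 CPM in NC and at 1350.4, 1434 and 1334 CPM in ORF-Flag. Every ORF-Flag library was above every NC library, with a log2 fold change of 0.24 ± 0.04 (SE, edgeR adjusted p = 0.000635).

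The genes called lower were a metallothionein and a cyclin. MT2A, a metal-binding metallothionein whose promoter carries an AP-1 site, stood at 293, 291 and 244 CPM in NC 1, 2 and 3 and at 138, 155 and 142 CPM in ORF-Flag 1, 2 and 3. It fell in every ORF-Flag library relative to every NC library, with a log2 fold change of -0.93 ± 0.05 (SE, edgeR adjusted p = 6.78e-12). Metallothionein genes are close copies of each other, and how reads that match several of them were counted is not given in the sources used here. CCND1, which encodes the G1 cyclin D1, stood at 126, 120.4 and 116 CPM in NC and at 109, 112 and 109 CPM in ORF-Flag. The groups did not overlap, and the log2 fold change was -0.14 ± 0.04 (SE, edgeR adjusted p = 0.0346). With edgeR the call was lost without NC 1 (adjusted p = 0.0879), NC 2 (adjusted p = 0.1), ORF-Flag 1 (adjusted p = 0.139), ORF-Flag 2 (adjusted p = 0.0711) or ORF-Flag 3 (adjusted p = 0.16), and it was kept without NC 3 (adjusted p = 0.00471). CXCL8, SPP1 and MT2A passed whichever library was left out.

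**Figure D4:**
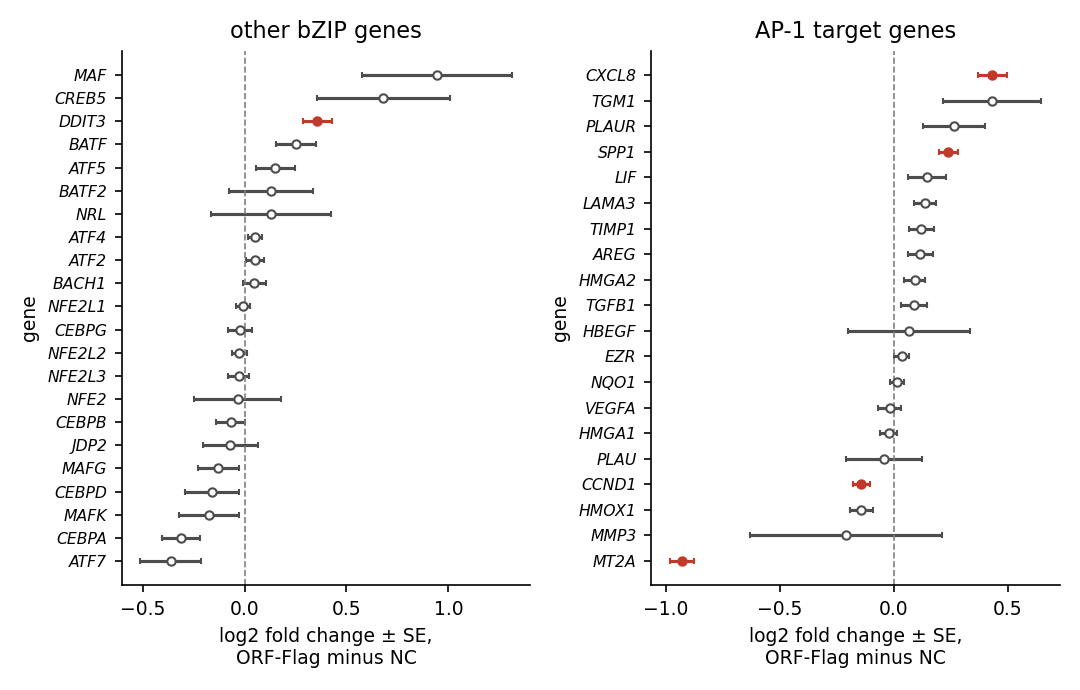
Log2 fold change, ORF-Flag minus NC, with its standard error as the bar, for the 22 tested bZIP genes outside the members (left) and 20 of the 21 tested AP-1 target genes (right); filled red points were called by edgeR. DDIT3 (0.36) is the 1 filled point on the left, and CXCL8 (0.43) and MT2A (-0.93) are the extremes of the 4 filled points on the right.

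The remaining target genes gave no call. NQO1, a detoxification enzyme that like MMP3 is named here after its value was seen, had a log2 fold change of 0.01 ± 0.03. The matrix metalloproteinases, which are the best known AP-1 targets, were scarce in both groups. MMP3 passed the filter, with overlapping groups and a log2 fold change of -0.21 ± 0.42, and MMP1, MMP7, MMP9, MMP10, MMP12 and MMP13 did not and were not tested. MMP7 had 4, 5 and 6 counts in NC 1, 2 and 3 and 10, 13 and 13 counts in ORF-Flag 1, 2 and 3, or 0.198, 0.200 and 0.200 CPM and 0.372, 0.747 and 0.482 CPM. MMP9 had 2, 3 and 5 counts in NC and 7, 3 and 6 counts in ORF-Flag, with 0.167 CPM as the highest level in NC and 0.172 CPM as the lowest in ORF-Flag. In CPM the groups did not overlap for MMP7 and MMP9, both named after their values were seen, whereas the other 4 had at most 4 counts in any library. Of the 14 target genes that did not pass, IL6, CCL2, GJA1, VIM and IVL had 0 counts in all 6 libraries, which allows up to 0.171 CPM in the shallowest library. The highest level of any of the 14 was that of MMP7 in ORF-Flag 2.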

How the data were processed

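The 6 HepG2 libraries were grouped by their sample labels. The values deposited are whole-number read counts for each Ensembl gene, not normalized. The submitters' processing notes name cutadapt 1.11, HISAT2 2.1.0, featureCounts 1.6.0, edgeR and GRCh38, and the strand setting is not given in the sources used here. Symbols were matched for 20421 of 20422 identifiers.

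Counts were tested with edgeR 4.0.16 in R 4.3.3 (filterByExpr, TMM, glmQLFit, glmQLFTest), with Benjamini-Hochberg adjustment over 12386 genes. CPM used TMM library sizes, and RPKM divided CPM by the union of exons in GENCODE 29. Counting intervals are exact binomial (Clopper-Pearson) at 95%. Replicates of a group differed beyond sampling noise (chi-square per degree of freedom between 2.39 and 5.23).

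The members and lists were chosen with earlier results of these data known. Genes named were the 10 members, called genes of each list (up to 6), the gene of highest RPKM in NC in each list, and the 5 genes most like the members, and 1 target gene that the rule covers is not reported here. Alternatives were DESeq2 1.42.0, limma-trend (limma 3.58.1, prior count 2), no TMM, no filter, at least 10 counts in every library, a block for the replicate number, leaving out each library, other gene lengths, and TGACTCA in place of TGANTCA.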

Additional observations from a re-analysis of the deposited data

How the results depend on the processing

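The count of genes called was 551, and it ran from 199 to 1058 when 1 library was left out (199 without ORF-Flag 3, 267 without NC 2, 278 without ORF-Flag 2, 300 without ORF-Flag 1 and 1058 without NC 3). Members called went from 5 to between 2 and 5 in the same fits, with 2 without NC 2 or ORF-Flag 3 and 3 without ORF-Flag 2. Because the members were selected on this contrast, these counts say nothing of its stability. DESeq2 called 4 members, JUNB being lost, and the filter of at least 10 counts in every library called 4, because FOSB was then not tested. Calls among the other bZIP genes went from 1 to 2 with limma-trend, with no filter, without NC 3 and without ORF-Flag 3, and CEBPA was the added gene each time. The range over left-out libraries was 1 to 2 for this list, 4 to 6 for the AP-1 targets and 0 to 0 for the upstream genes. The log2 fold change of JUND ran from -0.16 without NC 3 to 0.068 without NC 1, where its sign reversed, and the cause was not tested.

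With the replicate number as a block, 731 genes, 5 members, 1 other bZIP gene, 0 upstream genes and 5 targets were called. The numbers were not taken as a pairing, since the deviations of same-numbered libraries correlated at r = 0.0666, 0.0266 and 0.0448, and ORF-Flag 2 correlated best with NC 3 (0.0304). Depth limits FOSB, FOS and BATF3, whose NC libraries held at most 5, 17 and 2 counts.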
